A study of Mus musculus with 27 samples.

Results

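The comparison set 9 subcutaneous tumors against the cultured cell lines they were grown from. The samples were chosen by their labels: 3 tumors each of lines 31, 59 and 123 and the 1 culture array of each of these lines, 12 of the 27 mouse arrays in the series. All lines were immortalized neural stem cell (NSC) lines. Lines 31 and 59 were labelled p53 mutant, in culture and as tumors, and line 123 was labelled WT for p53. The host strain was given as CB17/ICR-Prkdcscid/IcrCrl, the SCID mouse, for tumors and cultures alike, and the tissue of the tumors as subcutaneous. The sex and age of the hosts, the number of cells injected, the time of growth and the origin of each line from 1 clone or many could not be read from the labels. The tumors of a line were numbered as biological replicates, and nothing further states that they came from separate animals. The other arrays, used below only as a yardstick, were the cultures of 7 further immortalized lines, 2 normal NSC cultures, 3 tumors of line 1, which had no culture array, and 3 pieces of subcutaneous tissue.

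Neural stem cells are kept dividing in dishes by growth factors, in the absence of blood vessels, immune cells and connective tissue. A tumor that the same cells form under the skin is a mixture of their descendants and of host cells that enter it, among them macrophages, endothelial cells that line its vessels, pericytes around them and fibroblasts. The scid mutation disables the joining of antigen receptor genes, so that the host makes very few mature T and B cells, while macrophages, neutrophils and natural killer cells remain. RNA of a whole tumor therefore measures cancer cells and host cells together. In such bulk RNA, fewer cells of a type and less RNA per cell cannot be told apart.

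Expression is given as log2 levels, so that a difference of 1 is a 2-fold change. As deposited, the array medians were 7.04 to 7.08 in the 3 cultures and 5.47 to 5.57 in the 9 tumors, so cell and tissue arrays appear to have been normalized apart. Exactly equal values numbered 0 in each of the 27 pairs of a tumor and a culture, 3 in pairs of cultures and 204 to 460 in pairs of tumors. The 12 arrays were quantile normalized together over 19937 genes before any difference was taken. With 1 culture array per line, and with the array set tied to the condition, array set and condition cannot be told apart, and no test of tumors against cultures was made. A gene was called when its 3 tumors exceeded the culture, or all fell below it, by a mean of at least 1 in lines 31, 59 and 123 alike. Levels below 5.08, the 25th percentile of all levels, are close to the floor of the arrays, and a difference from such a level may understate the true one.

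After normalization, tumors of 1 line correlated with each other at r = 0.975 to 0.985 across genes in line 59 and 0.979 to 0.982 in line 123. In line 31, tumor 3 stood apart from the other two, at r = 0.960 and 0.945 against 0.976 between tumors 1 and 2. A tumor correlated with its own culture at r = 0.888 to 0.911 in line 31, 0.907 to 0.921 in line 59 and 0.914 to 0.924 in line 123, below the 0.947 to 0.976 between tumors of different lines and the 0.970 to 0.981 between the 3 cultures. The differences of 2 lines correlated across genes at r = 0.82 to 0.83. These are correlations across genes, which are not independent replicates, and the tumors share an array set. The median tumor-culture difference of all genes was -0.08.

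In all 3 lines together, 644 of 19937 genes (3.23%) lay higher in tumors and 197 (0.988%) lay lower. Without tumor 3 of line 31 the counts were 646 and 196. Genes with all 9 tumors above their cultures by any amount numbered 3137 (15.7%), and those with all 9 below numbered 4759 (23.9%). The higher genes were also the ones with large differences, since 208 of them and 4 of the lower genes differed by at least 4-fold in every line. Just inside the threshold lay Defb14, with a smallest line difference of 1.0012, and among those just outside it Tnfaip8l2, at 0.9999. On the lower side Polr1e lay inside at -1.002, and Olfr237 and Mif lay outside at -0.998 and -0.9976. Within single lines, 1109 genes lay higher (5.56%) and 818 lower (4.10%) in line 31, 1089 (5.46%) and 526 (2.64%) in line 59, and 1069 (5.36%) and 531 (2.66%) in line 123.

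The spread between cultured lines gives a scale that 1 array per line does not. After quantile normalization of all 27 arrays, 471 of the 644 higher genes (73.1%) had all 9 tumors above all 10 cultured immortalized lines, against 6.06% of all genes, and 434 (67.4%) had them above the 2 normal NSC cultures too. Of the 197 lower genes, 129 (65.5%) had all 9 tumors below all 10 lines, against 8.77% of all genes, and 113 (57.4%) below the normal NSC cultures as well. The tumors and 3 of the 10 lines are the arrays that chose these genes, so these shares are a description. The 3 tumors of line 1 had no part in the choice of genes. They lay above all 10 lines for 471 of the 644 higher genes (73.1%, against 11.8% of all genes) and below all 10 for 152 of the 197 lower genes (77.2%, against 16.7%). Their arrays belong to the same tissue set as the other tumors.

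The genes that lay highest over culture were mostly those of the macrophage, a phagocyte that clears debris and presents antigen. Lyz2, the lysozyme of macrophages and other myeloid cells, stood at 4.68, 4.66 and 4.97 in the cultures of lines 31, 59 and 123. In the tumors it stood at 12.65, 12.69 and 11.79 in line 31, at 12.69, 11.69 and 11.99 in line 59 and at 12.10, 12.53 and 12.45 in line 123. Every tumor lay far above every culture, and the mean differences of 7.70, 7.46 and 7.39 were many times the SD between tumors of a line (0.51, 0.52 and 0.23, n = 3 each). Lyz2 was named for its large difference, and the SD leaves out the single culture arrays, so these values are a description. Ccr2, the receptor that draws monocytes from the blood, was at 3.43, 3.61 and 3.58 in culture and at 11.59, 10.70 and 10.25 in the tumors of line 31, at 9.97, 9.23 and 9.81 in those of line 59 and at 9.10, 10.27 and 9.41 in those of line 123. The tumors of line 31 held the highest value, and the groups did not overlap. Ccl12, a monocyte-attracting chemokine that binds this receptor, differed by 7.51, 6.53 and 6.43 in lines 31, 59 and 123.

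**Figure D1:**
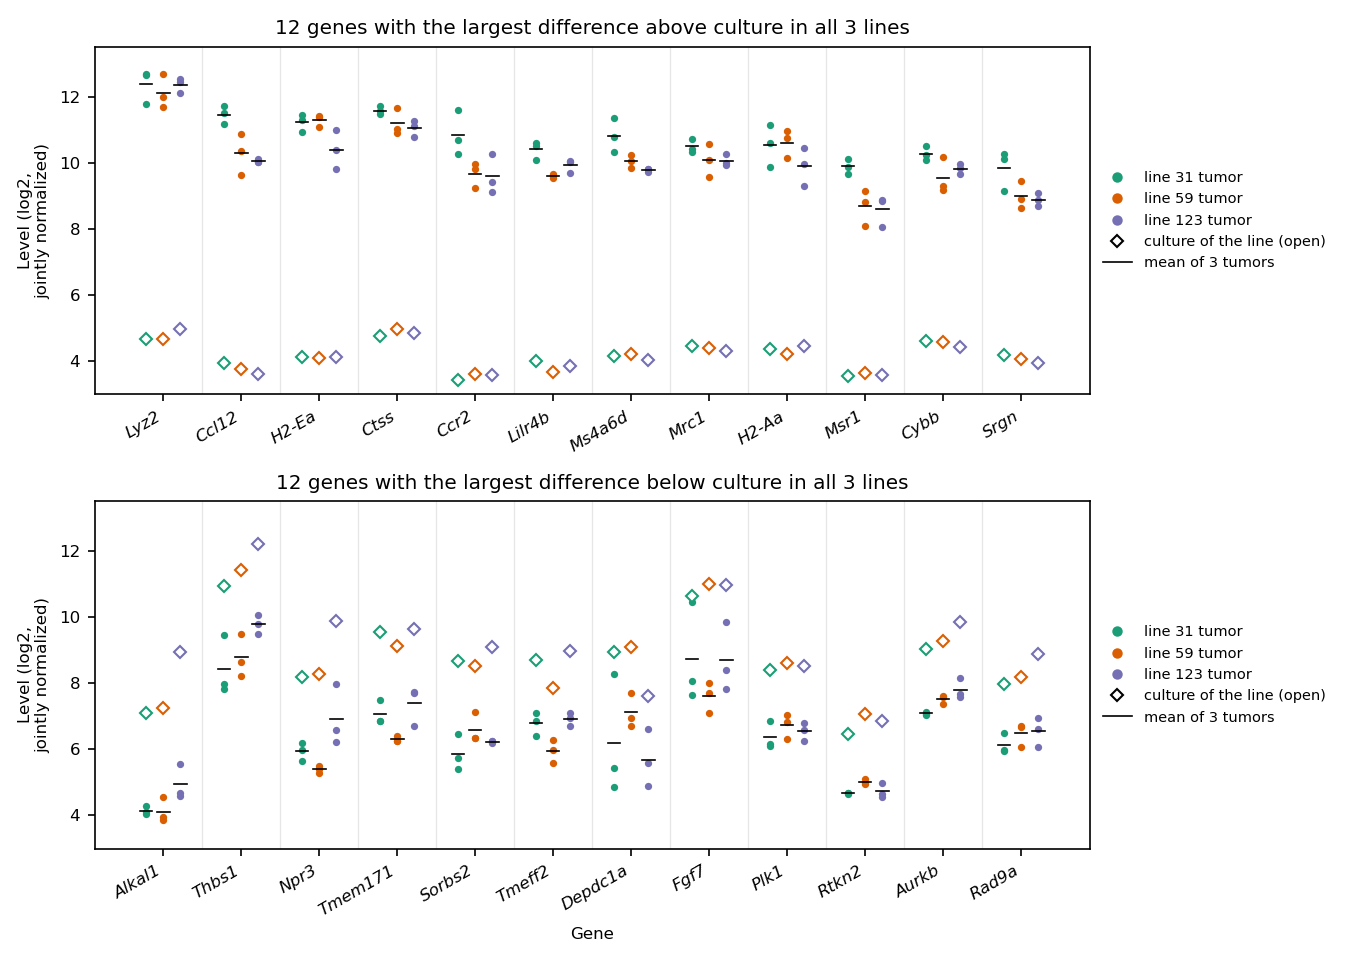
Log2 levels after joint normalization (y axis) of the 12 genes whose smallest difference over the 3 lines was largest, above culture (top) and below it (bottom). Filled dots are single tumors (3 per line), black bars their means and open diamonds the 1 culture array of the line; in the top panel all cultures lie under 5 and all tumors above 8.

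The other genes among the 12 highest were of the same kind or of antigen presentation. Msr1 and Mrc1 are scavenger and mannose receptors of macrophages, and their mean differences over the 3 lines were 5.47 and 5.82. Ctss, a lysosomal protease that trims the invariant chain of class II molecules, differed by 6.42, and Cybb, the catalytic subunit of the phagocyte oxidase, by 5.34. Ms4a6d (6.08), Lilr4b (6.13) and Srgn (5.18), the last a proteoglycan of secretory granules in blood cells, completed the group with the class II genes H2-Ea (6.85) and H2-Aa (6.0). All 12 had culture levels under the 25th percentile in the 3 lines, all 9 tumors above the 10 cultured lines, and the line 1 tumors above them as well.

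Of the 22 macrophage genes measured, 21 lay higher (95.5%, against 3.23% of all genes) and 0 lower. The exception was Trem2, a lipid receptor of macrophages and microglia, with differences of 0.68, 0.14 and 0.45, and all 9 of its tumor values still lay above culture. The mean level of the list was 5.08 to 5.13 in the cultures, close to the floor, and 8.5 to 9.52 in the tumors. Line 31 tumors held 9.32, 9.52 and 9.02, line 59 tumors 9.24, 8.53 and 8.68, and line 123 tumors 8.54, 8.5 and 8.71. The median difference of the list was 3.80, against -0.08 for all genes. Among the markers that define the lineage, Adgre1, which encodes a surface antigen of mature macrophages, differed by 4.72, the growth factor receptor Csf1r by 3.66 and the endosomal protein Cd68 by 2.33.

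Markers of other white blood cells gave few calls. Of 15 lymphocyte and natural killer genes 0 were called, a count that the shares of all genes called (3.23% higher, 0.988% lower) would also give, and the median difference was 0.06. By array, this list averaged 4.76 to 4.84 in the cultures and 4.86 to 5.39 in the tumors, without overlap. The highest value was in tumor 3 of line 31, and the means of the other tumors lay under the 25th percentile of all levels. The T cell genes Cd3e (-0.13), Cd3d (0.04) and Cd3g (-0.10) were near or below their culture levels. So were the B cell genes Cd79b (-0.34) and Ms4a1 (0.06). Cd4, also found on some macrophages, differed by 0.41 with all 9 tumors above the 10 cultured lines. The larger differences in the list belonged to Ncr1 (1.11), an activating receptor of natural killer cells, and to the protease gene Gzma (0.81), and neither was called. Of 13 neutrophil genes 1 was called (7.69%, against 3.23% of all genes higher), a count near that share. It was Csf3r (1.39), which macrophages also express. Cxcr2 (1.20), a chemokine receptor of neutrophils, and Mmp9 (0.90), a protease of their granules, were uncalled. The mean level of the neutrophil list was 6.10 in tumor 3 of line 31 and 4.77 to 5.16 in the other 8 tumors, all above the 4.64 to 4.71 in culture, and its median difference of 0.69 became 0.30 without that tumor. S100a8, a calcium-binding protein abundant in neutrophils, differed by 1.87, -0.29 and 0.51 in lines 31, 59 and 123. The 4 erythroid genes were all uncalled.

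The products of complement genes tag targets for uptake and lysis. Of 15 such genes 10 lay higher (66.7%, against 3.23% of all genes) and 0 lower, with a median of 1.68. C3ar1, a receptor for a fragment of C3, stood at 5.53, 5.70 and 5.67 in culture and at 9.95 to 11.01 in the 9 tumors, with differences of 5.26, 4.55 and 4.62. C1qc, a chain of the recognition molecule C1q that macrophages make, differed by 4.74, 4.68 and 4.02. Serping1, the inhibitor of C1, differed by 4.09, 4.66 and 3.97, and the protease gene C1s1 by 3.71, 2.87 and 2.54. The factors Cfb (2.34) and C4b (1.64), the receptor C5ar1 (1.84) and the membrane inhibitor Cd55 (1.68) were also called. C2 (0.86), C1ra (0.67), Cd59a (0.99), Cfp (0.11) and Cfi (-0.21) were not. The mean level of the list was 4.96 to 5.21 in culture and 6.74 to 7.31 in tumors, without overlap.

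Of 14 antigen presentation genes 6 lay higher (42.9%, against 3.23% of all genes) and 0 lower, with a median of 0.93. Class II molecules display peptides to helper T cells and are made mainly by macrophages, dendritic cells and B cells. The class II chains H2-Aa, H2-Ab1 (3.12) and H2-Eb1 (2.09), the invariant chain Cd74 (3.57) and the peptide loader H2-DMa (3.35) were called. So was Psmb8 (1.92), a subunit of the immunoproteasome, which cuts peptides for class I molecules. Cd74 stood at 5.33, 5.02 and 5.12 in culture, at 8.09, 9.94 and 7.58 in line 31, at 9.57, 9.22 and 9.48 in line 59 and at 7.62, 8.57 and 8.49 in line 123. All tumors were above all cultures, and within line 31 they spanned more than the 3 tumors of line 59 did. The other genes of the class I pathway, which nearly all nucleated cells use, were uncalled. B2m, the light chain of class I, differed by 1.38, 0.22 and 1.69, the peptide transporters Tap1 and Tap2 by 0.64 and -0.34 and the loading factor Tapbp by 0.08. Ciita, the master regulator of class II genes, was uncalled too, at 0.76. No test compared the classes.

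Among 22 chemokine and cytokine genes 6 lay higher (27.3%, against 3.23% of all genes) and 0 lower, with a median of 1.06. Il1b, an inflammatory cytokine of activated macrophages, stood at 5.27, 5.0 and 5.10 in culture. Its tumor levels were 9.33, 9.48 and 11.07 in line 31, 10.62, 9.25 and 8.55 in line 59 and 9.18, 8.39 and 8.55 in line 123. No tumor overlapped a culture, and tumor 3 of line 31 was the highest. Cxcl16 (3.18), Ccl8 (2.79), Ccl6 (2.24), Ccl7 (1.72) and Ccl3 (1.32), chemokines for lymphocytes or monocytes, were the other called genes. Tnf (0.26), Ccl2 (0.34) and Cxcl1 (0.23) lay close to culture, and Cxcl12, a retention signal made by stromal cells, had a mean difference of -0.94. Cxcl5, a neutrophil attractant, differed by 3.15 in line 31, 0.24 in line 59 and 1.44 in line 123 and was not called.

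**Figure D2:**
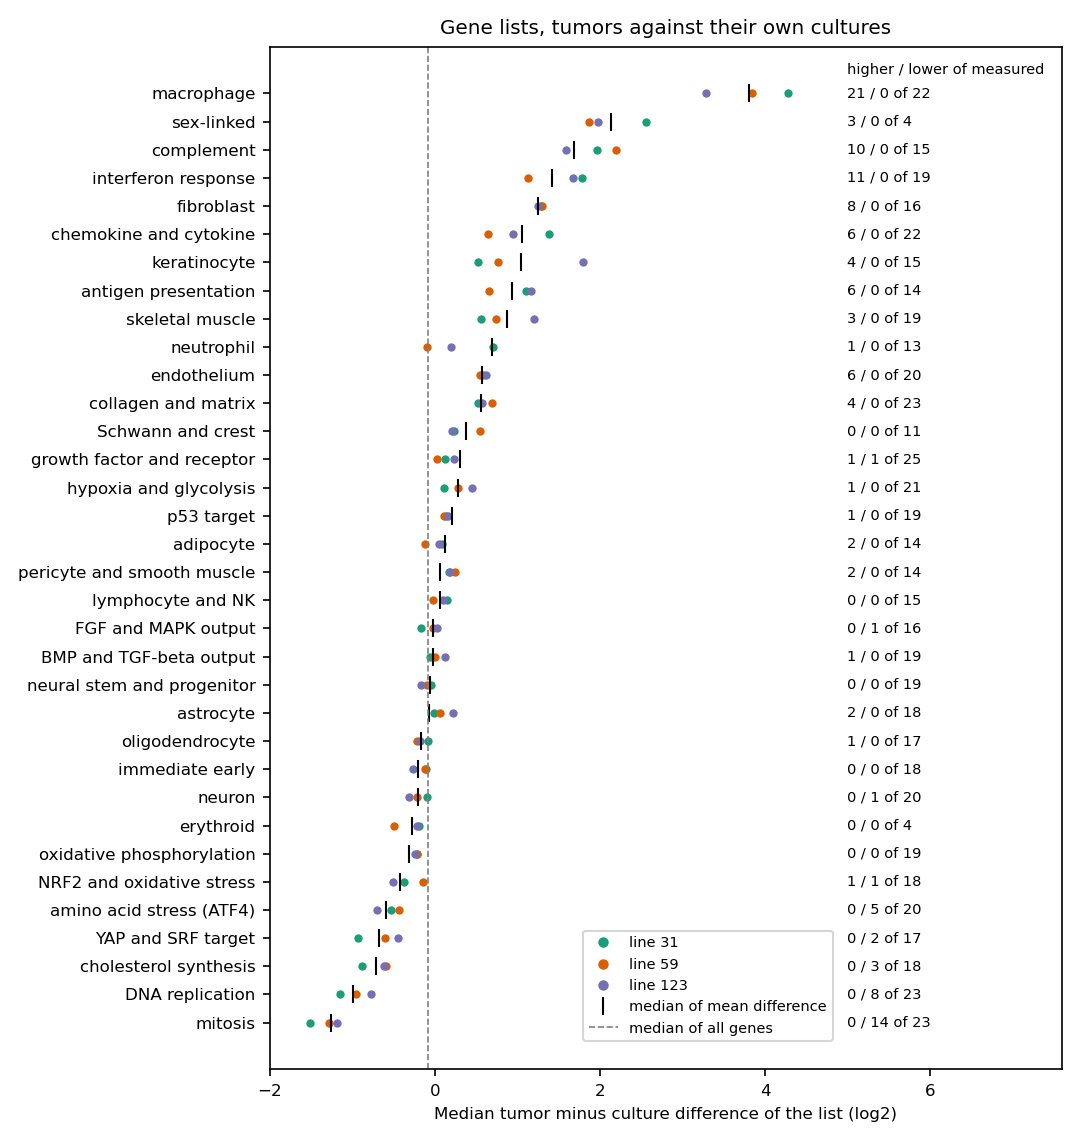
Median tumor minus culture difference (log2, x axis) of the measured members of each of the 34 gene lists (y axis), with a dot for each line, a bar for the median of the mean difference and, at the right, the members that lay higher and lower of those measured. The dashed line is the median of all genes at -0.08; the macrophage list lies at 3.80 and the mitosis list at -1.27.

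Type I interferon, released on sensing of viral or displaced self nucleic acid, switches on a set of antiviral genes. Of 19 of these 11 lay higher in tumors (57.9%, against 3.23% of all genes) and 0 lower, with a median of 1.42. Ifit3, an antiviral protein with tetratricopeptide repeats, stood at 5.07, 4.74 and 4.65 in culture, at 8.23, 8.12 and 9.86 in line 31, at 7.58, 7.86 and 7.99 in line 59 and at 8.15, 8.30 and 8.98 in line 123. The tumors all lay above the cultures, and tumor 3 of line 31 was the highest. Its relative Ifit1 differed by 3.89, 2.66 and 3.06. Oasl2 (2.83), a relative of the enzymes that make oligoadenylate, Gbp3 (2.74), a GTPase that attacks vacuoles of pathogens, the GTPases Mx1 (2.74) and Mx2 (1.60), the RNA sensor Ifih1 (2.55), the brake on the response Usp18 (1.99), Rsad2 (1.96), Oas2 (1.38) and Oas1a (1.23) were called. The signalling components Stat2 (0.41), Irf9 (0.77) and Irf7 (1.03) were not, and neither were Bst2 (0.39) and Cxcl10 (0.66). The mean level of the list was 5.73 to 5.84 in culture and 7.01 to 8.34 in tumors. Without tumor 3 of line 59 the count was 8 of 19.

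The promoters of these genes are shown because the members lay higher together. The interferon-stimulated response element contains a pair of GAAA blocks, and GAAA followed by any 2 bases and a second GAAA was searched on both strands, from the start of transcription to 250 bases upstream, in RefSeq promoters of build GRCm38.p6. They occurred in 9 of 18 promoters of the 15 interferon genes found in the table (50.0%), against 2.98% of all 32851 promoters, and in 5 of 8 promoters of the called genes. In the following 150-base stretches upstream of Ifit3 (chr19:34583379-34583528), Ifit1 (chr19:34640739-34640888) and Gbp3 (chr3:142559894-142560043), all on the plus strand and written 5′ to 3′, capitals mark the matches, which read as TTTC blocks on this strand.
Ifit3: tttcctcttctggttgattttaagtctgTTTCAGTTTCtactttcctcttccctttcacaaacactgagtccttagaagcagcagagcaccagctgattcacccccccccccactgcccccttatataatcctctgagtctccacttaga
Ifit1: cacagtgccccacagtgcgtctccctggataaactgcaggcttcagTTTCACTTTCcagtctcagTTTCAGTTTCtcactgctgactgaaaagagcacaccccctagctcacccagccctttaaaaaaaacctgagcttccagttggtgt
Gbp3: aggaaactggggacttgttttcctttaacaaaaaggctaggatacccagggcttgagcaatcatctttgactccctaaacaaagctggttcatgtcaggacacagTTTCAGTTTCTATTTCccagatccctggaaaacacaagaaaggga
Ifit3 held 1 match in this stretch, Ifit1 held 2, and Gbp3 held 2 that overlap. A match is a run of letters and was not tested for binding in these samples.

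Connective tissue genes formed another large group. Of 16 fibroblast genes 8 lay higher (50.0%, against 3.23% of all genes) and 0 lower, with a median of 1.25. Dcn, which encodes the collagen-binding proteoglycan decorin, stood at 6.86, 6.61 and 5.42 in culture, at 12.07, 11.81 and 12.34 in line 31, at 9.57, 11.59 and 11.50 in line 59 and at 11.03, 10.83 and 10.13 in line 123. All tumors lay above the 3 cultures, with the lowest value in tumor 1 of line 59. Among all arrays on the 27-array scale, however, the culture of line 119 stood at 10.64, within the range of the tumors (9.72 to 12.27). Lum, a related proteoglycan, differed by 4.71, 4.43 and 4.55 from culture levels near the floor. Dpt (4.09), Mfap5 (3.29), the protease Fap (2.84), Thy1 (1.70) and the collagen Col3a1 (1.58) were called too. For Mfap5 and Col3a1, as for Dcn, the 9 tumors did not all lie above the 10 cultured lines. The main collagen of skin and bone, Col1a1, differed by 0.97, 0.93 and 0.87, just short of the threshold in each line, and Cd34 by -1.29, -1.0 and 1.23.

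Pdgfra, the receptor for platelet-derived growth factor on fibroblasts and oligodendrocyte precursors, stood at 5.99, 7.16 and 6.95 in culture. Its tumors were at 8.54, 8.57 and 8.93 in line 31, at 8.84, 8.22 and 8.53 in line 59 and at 8.38, 8.52 and 8.11 in line 123. The tumors clustered within a range smaller than that of these cultures and did not overlap them. With all arrays normalized together, however, Pdgfra did not lie higher in every one of these tumors than in all cultured immortalized lines. The oligodendrocyte genes it shares a list with were otherwise uncalled, Olig2 at -0.22, Sox10 at 0.03 and Cspg4 at 0.00. Of 23 collagen and matrix genes 4 lay higher (17.4%, against 3.23% of all genes), with a median of 0.56. Postn, a matrix protein of remodelling tissue, differed by 5.19, 4.53 and 1.78. Its tumors stood at 11.38 to 12.48 in all lines, and the smaller difference in line 123 went with a culture level of 10.10 against 6.42 and 7.34. The basement membrane collagens Col4a1 (0.02) and Col4a2 (0.21) lay close to culture.

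Of 20 endothelial genes 6 lay higher and 0 lower, and 15 had all 9 tumors above culture, with a median of 0.57. Emcn, a sialomucin of venous and capillary endothelium, stood at 3.76, 3.71 and 3.74 in culture and at 7.34 to 8.97 in tumors, with differences of 4.38, 4.41 and 4.24. The junction proteins Cdh5 (2.37) and Pecam1 (2.27), the receptor Kdr (1.70), through which vascular endothelial growth factor acts, the angiopoietin receptor Tek (1.45) and Cd93 (2.58) were the other called genes. Pecam1 stood at 5.41, 5.25 and 5.20 in culture, at 7.22, 7.05 and 7.66 in line 31, at 7.84, 7.94 and 7.71 in line 59 and at 8.01, 7.22 and 7.41 in line 123. The groups did not overlap. Cldn5 (0.15) and Vwf (0.16), both also endothelial, lay close to culture. Pericyte and smooth muscle genes were called for Rgs5 (2.09) and Abcc9 (1.81), 2 of 14 (14.3%, against 3.23% of all genes). The contractile genes of the same list were uncalled and lay on both sides of culture, with Acta2 at -1.12, Tagln at -1.02 and Cnn1 at -0.74, and Actg2 at 0.64, Myh11 at 0.55 and Des at 1.05.

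Skin and muscle genes varied widely between tumors of the same line. Of 19 skeletal muscle genes 3 lay higher (15.8%, against 3.23% of all genes). The mean level of the list was 5.71 to 5.83 in culture, 5.73 in tumor 3 of line 31 and 7.91 in tumor 2 of line 123. Myh4, the fast myosin heavy chain, stood at 5.18, 5.01 and 4.90 in culture, at 6.81, 6.73 and 5.29 in line 31, at 5.76, 6.90 and 8.54 in line 59 and at 6.26, 9.64 and 7.58 in line 123. All 9 values lay above culture, though by very different amounts within a line, and the call ended without tumor 1 or tumor 2 of line 31. The count was 1 without tumor 1 of line 31 and 5 without tumor 3 of that line. Of 15 keratinocyte genes 4 lay higher (26.7%, against 3.23% of all genes). Krtdap stood at 5.84, 4.61 and 9.09 in the tumors of line 59 against 4.51 in its culture. Without tumor 3 of line 59 only Cdh1, the epithelial cadherin, kept its call. Of 14 adipocyte genes 2 were called (14.3%, against 3.23% of all genes), the fatty acid carrier Fabp4 (2.76) and Car3 (1.94). The call of Car3 ended without tumor 1 of line 31 or tumor 3 of line 59.

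**Figure D3:**
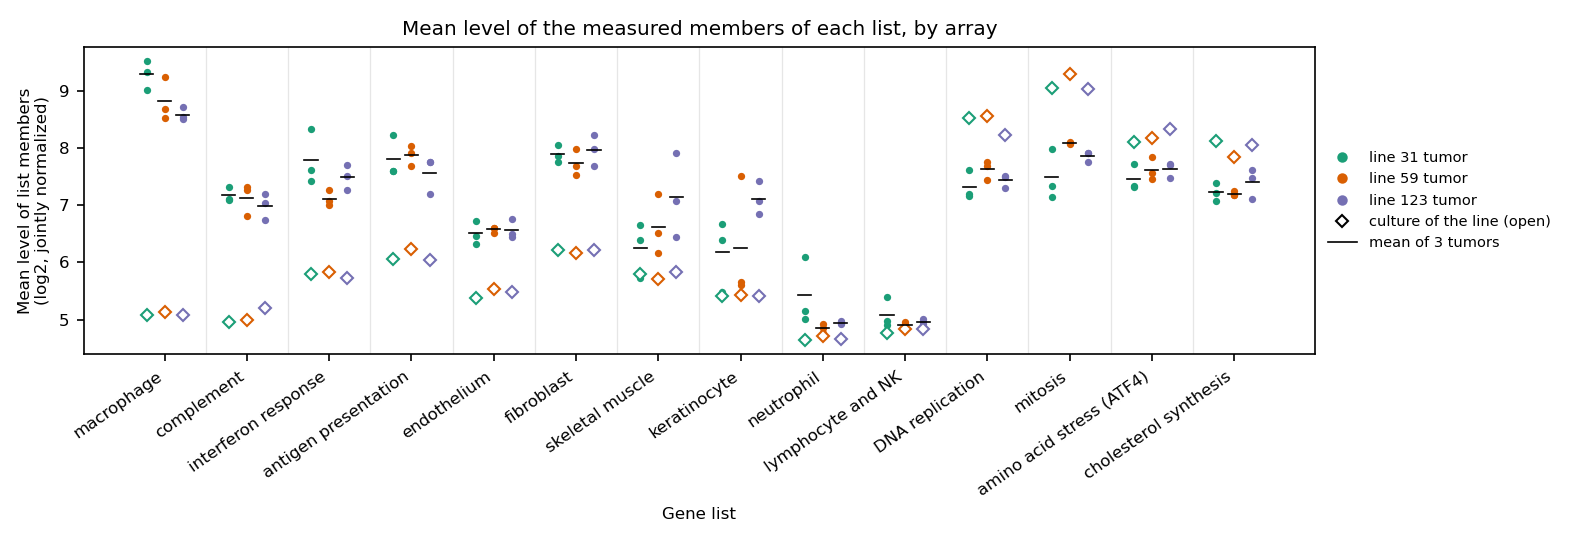
Mean log2 level of the measured members of 14 gene lists (y axis, joint normalization), 1 dot per tumor, black bars for the mean of 3 tumors and open diamonds for the culture of the line. Macrophage, complement, interferon, antigen presentation, endothelium and fibroblast levels lie above all cultures in all 9 tumors; mitosis, DNA replication, amino acid stress and cholesterol synthesis levels lie below them; skeletal muscle and keratinocyte levels spread widely between tumors.

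Mitosis was the list with the largest share of members lower in tumors. Of 23 mitosis genes 14 lay lower (60.9%, against 0.988% of all genes) and 0 higher, with a median of -1.27. All 9 tumors lay below their culture for 22 of them, against 23.9% of all genes. Plk1, a kinase that drives entry into and exit from mitosis, stood at 8.41, 8.62 and 8.52 in culture, at 6.09, 6.18 and 6.85 in line 31, at 6.82, 7.05 and 6.32 in line 59 and at 6.59, 6.25 and 6.79 in line 123. All tumors lay below all cultures, on the 27-array scale below all 10 lines, and the differences were -2.04, -1.89 and -1.97 (SD between tumors 0.42, 0.37 and 0.28, n = 3 each). Aurkb, the kinase that corrects the attachment of chromosomes to the spindle, differed by -1.96, -1.76 and -2.05, and the motor protein gene Kif20a by -2.17, -1.50 and -1.82. Ttk (-1.65), a kinase of the spindle checkpoint, the spindle motor Kif11 (-1.57), the microtubule bundler Prc1 (-1.54) and the transcription factor Foxm1 (-1.31) were called as well.

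Mki67, whose protein marks dividing cells, stood at 9.68, 10.28 and 8.88 in culture, at 8.13, 8.01 and 8.79 in line 31, at 8.31, 8.75 and 9.31 in line 59 and at 8.38, 8.53 and 8.28 in line 123. Every tumor lay below its own culture, but the difference in line 123 was -0.48, and the gene was not called. Tumors and cultures of different lines overlapped, since tumor 3 of line 59 lay above the culture of line 123. The mean level of the mitosis list was 9.03 to 9.30 in culture and 7.14 to 8.10 in tumors, with the lowest values in tumors 1 and 2 of line 31 (7.34 and 7.14) and 7.99 in tumor 3. The macrophage list lay in the other direction in the same arrays, at 9.32, 9.52 and 9.02 in these 3 tumors, and its part in the lower levels was not tested.

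Of 23 replication genes 8 lay lower (34.8%, against 0.988% of all genes) and 0 higher, with a median of -1.0. All 9 tumors lay below culture for 20 of them, against 23.9% of all genes. The called members included 4 subunits of the helicase that unwinds DNA, Mcm5 (-1.56), Mcm7 (-1.52), Mcm3 (-1.45) and Mcm2 (-1.38), the polymerase Pole (-1.42), the initiation factors Gins1 (-1.16) and Gins2 (-1.38) and the chromatin assembly factor Chaf1a (-1.28). Mcm5 stood at 8.60, 8.60 and 7.98 in culture and at 6.39 to 7.24 in the 9 tumors, without overlap. The sliding clamp Pcna (-0.94) and the nucleotide reductase Rrm2 (-1.24, with -0.94 in line 123) fell short of the threshold in a line. The count was 5 without tumor 3 of line 59, where Mcm7 was among the calls that ended, and 5 without tumor 2 of line 123, where Pole was. Among genes outside these lists, Depdc1a, a mitotic protein, differed by -2.74, -1.97 and -1.91, Rad9a, a sensor clamp for DNA damage, by -1.83, -1.71 and -2.31, and Ccnd1, the cyclin that links growth signals to the cell cycle, by -1.83, -1.79 and -1.66.

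Mitotic genes are known for CCAAT boxes bound by NF-Y and for the cell cycle homology region with the core TTTGAA. The letters CCAAT were found on either strand in 18 of 20 promoters of the 19 mitosis genes in the table (90.0%), against 33.8% of all promoters, and TTTGAA in 8 of 20 (40.0%), against 16.0%. Among the promoters of the called members alone, CCAAT was found in 10 of 11 and TTTGAA in 2 of 11, so most of the TTTGAA matches lay in promoters of uncalled members. The searches used the same windows of 250 bases, and the 2 motifs have no letters in common where they are marked. The stretches upstream of Kif11 (chr19:37376232-37376381) and Prc1 (chr7:80294326-80294475), both on the plus strand, are shown because they hold both motifs, as most promoters of called members do not, and carry them in capitals, reading ATTGG and TTCAAA in Kif11, where they lie on the other strand, and CCAAT and TTTGAA in Prc1.
Kif11: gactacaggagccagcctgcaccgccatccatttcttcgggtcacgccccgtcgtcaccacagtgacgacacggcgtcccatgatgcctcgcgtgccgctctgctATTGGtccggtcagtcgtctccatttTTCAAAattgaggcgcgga
Prc1: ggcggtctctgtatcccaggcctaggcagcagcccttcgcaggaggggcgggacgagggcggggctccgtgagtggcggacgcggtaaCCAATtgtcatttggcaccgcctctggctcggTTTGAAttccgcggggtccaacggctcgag
For replication genes, the E2F-type letters GCGCGAAA were found in 3 of 21 promoters (14.3%, against 0.256% of all) and GCGGGAAA in 2 of 21 (9.52%, against 0.895%). For cholesterol genes, the sterol element TCACNCCAC was found in 1 of 18 (5.56%, against 1.05%). Among promoters of called members alone, each E2F-type motif was found in 1 of 6 and the sterol element in 0 of 2.

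Of the 12 genes with the largest differences below culture, 4 have been given with cell division. Alkal1, a ligand of the ALK and LTK receptors, stood at 7.11, 7.25 and 8.94 in culture, at 4.28, 4.04 and 4.09 in line 31, at 4.55, 3.85 and 3.96 in line 59 and at 4.68, 5.56 and 4.59 in line 123. Most tumor values lay under the 25th percentile, and none reached any of the 3 cultures. Thbs1, a matrix glycoprotein that activates TGF-beta and restrains vessel growth, stood at 10.95, 11.43 and 12.21 in culture, at 7.82, 9.45 and 7.97 in line 31, at 9.48, 8.22 and 8.63 in line 59 and at 9.48, 9.79 and 10.06 in line 123. The groups did not overlap, and the differences were -2.54, -2.65 and -2.43. On the 27-array scale Thbs1 was at 6.54 and 6.56 in the normal NSC cultures and at 7.07 to 8.01 in subcutaneous tissue, below the tumors (8.07 to 10.19). Fgf7, a fibroblast growth factor for epithelial cells, differed by -1.89, -3.39 and -2.28, although tumor 3 of line 31, at 10.46, came close to its culture at 10.62. The natriuretic peptide receptor gene Npr3 (-2.70), Tmem171 (-2.52), the adhesion adaptor Sorbs2 (-2.53), Tmeff2 (-1.96) and Rtkn2 (-2.0) were the remaining members of the 12. On the 27-array scale, Thbs1, Tmeff2, Plk1, Rtkn2, Aurkb and Rad9a had all 9 tumors below all 10 cultured lines. Alkal1, Npr3, Tmem171, Sorbs2, Depdc1a and Fgf7 did not.

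Thbs1 and the actin-binding calponin Cnn2 (-1.47) were the 2 called members among 17 targets of the mechanosensitive regulators YAP and SRF (11.8%, against 0.988% of all genes). Of the 17 targets, 8 had all 9 tumors below culture, against 23.9% of all genes, and the median was -0.67. Ccn1 (-1.31), Ccn2 (-0.35) and Ankrd1 (-0.35), common readouts of YAP, were not called, and Ccn2 differed by 0.62, -1.71 and 0.05 in the 3 lines. Of 18 immediate early genes, which respond within minutes to growth factors, 0 were called. The shares of all genes called (3.23% higher, 0.988% lower) would also give this count. Fos differed by 0.78, and Egr1 and Myc each by -0.95.

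Biosynthetic genes lay lower in part. Enzymes of serine and one-carbon metabolism and amino acid import, which the transcription factor ATF4 controls, gave 5 of 20 genes lower and 0 higher, with a median of -0.59. Psat1, the aminotransferase of serine synthesis, stood at 10.65, 10.57 and 10.43 in culture, at 7.73, 8.22 and 7.78 in line 31, at 9.11, 8.93 and 8.73 in line 59 and at 8.88, 8.43 and 8.95 in line 123. Tumors of line 31 were the lowest, and no tumor reached a culture. Shmt2 (-1.86), which turns serine into glycine in mitochondria, Phgdh (-1.25), the first enzyme of serine synthesis, Asns (-1.29), the asparagine synthetase, and the neutral amino acid carrier Slc7a5 (-1.48) were also called. Other members were uncalled, among them the transcription factors Atf4 (-0.71) and Ddit3 (0.14), the kinase-like Trib3 (-0.14), Chac1 (-0.59), which breaks down glutathione, and Cebpb (0.54). Of 18 cholesterol synthesis genes 3 lay lower (16.7%, against 0.988% of all genes), Idi1 (-1.60), Lss (-1.40) and Fdps (-1.34). All 9 tumors lay below culture for 14 of the 18, against 23.9% of all genes (median of the list -0.71). Without tumor 2 of line 123 the calls of Idi1 and Lss ended, and without tumor 2 of line 59 that of Fdps. Nuclear genes of oxidative phosphorylation had 0 of 19 called, near the shares of all genes called (3.23% higher, 0.988% lower), and a median of -0.32.

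The next lists had 0 or 1 called member in each direction, which is near the share of all genes called (3.23% higher, 0.988% lower), and are given for their members. Hypoxia targets lay on both sides of culture. Of 21 genes 1 was called, Bnip3, which directs mitochondria to degradation, with 2.18, 1.20 and 1.82. Its level in tumor 3 of line 59 was 7.86 against 7.83 in culture, and the call ended without either of the other tumors of that line and with median centring. The kinase Pdk1 (1.01), the hydroxylase Egln3 (2.17, with 0.90 in line 59) and the carbonic anhydrase Car9 (0.73) were uncalled with positive means, and the glucose carrier Slc2a1 (-0.71) and the lactate dehydrogenase Ldha (-1.02) were uncalled with negative ones. Of the 18 genes of the NRF2 list, Mgst1 (2.16), a glutathione transferase of membranes, lay higher and the transketolase Tkt (-1.36) lower. Of 19 p53 targets 1 was called, Trp53inp1 (2.28 and 1.66 in lines 31 and 59, labelled p53 mutant, and 1.47 in line 123, labelled WT). Mdm2, the p53 target that degrades p53, differed by 0.33, 0.09 and 0.30, and Cdkn2a, a tumor suppressor gene upstream of p53, by -0.15, 0.22 and -0.18. Tgfbi, a matrix protein induced by TGF-beta, was the called gene of 19 in the BMP and TGF-beta list, with differences of 3.02, 3.77 and 2.93.

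Genes of the neural lineages were set out in 5 lists, including the oligodendrocyte list above. Of 19 neural stem and progenitor genes 0 were called, with a median of -0.07. The shares of all genes called (3.23% higher, 0.988% lower) would also give this count. Sox2, a transcription factor of neural stem cells, stood at 7.67, 7.49 and 6.08 in the cultures of lines 31, 59 and 123, at 6.09, 5.75 and 4.18 in the tumors of line 31, at 7.37, 8.06 and 7.07 in those of line 59 and at 7.19, 5.72 and 6.48 in those of line 123. Tumors of line 31 lay below their culture, and those of the other lines on both sides of it. Nes, the intermediate filament of progenitors, differed by -2.19, -0.48 and -0.26. In the limma F test described below, the line differences did not pass for Sox2 (adjusted p = 0.9999) or Nes (adjusted p = 0.7558). Cd24a, another member of this list, differed by -2.394, -1.215 and -0.175 in lines 31, 59 and 123 (limma F test, adjusted p = 0.633). Prom1 (0.09), Fabp7 (-0.06) and Pax6 (0.16) lay near culture.

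Of 18 astrocyte genes 2 lay higher (11.1%, against 3.23% of all genes), and both are made outside the brain as well. Apoe, a lipid carrier secreted by astrocytes and macrophages, stood at 6.50, 6.83 and 6.73 in culture and at 10.12 to 12.01 in tumors, with differences of 4.71, 4.19 and 3.86. Sparcl1, a secreted matrix protein, stood at 5.56, 5.32 and 5.35 in culture, at 9.59, 9.43 and 9.28 in line 31, at values up to 10.45 in line 59 and at 10.34, 10.11 and 10.17 in line 123. On the 27-array scale it was at 10.55 and 11.14 in the normal NSC cultures and at 10.33 to 10.89 in subcutaneous tissue, and at 5.66 to 7.34 in the 10 immortalized lines. The level in tumors (9.44 to 10.55) thus lay beside those of both normal sample kinds. Gfap, the astrocyte filament, differed by -0.28, 0.05 and -0.20, Aqp4 by a mean of -0.10 and S100b by -0.09. Of 20 neuron genes 1 was called (against 0.988% of all genes), the RNA-binding protein gene Elavl4 (-1.28), whose tumor levels of 3.35 to 3.72 lay under the 25th percentile and whose call ended with median centring, with normalization over all probe sets and without tumor 2 of line 59. Gap43, a protein of growing axons and Schwann cells, differed by 1.12, 2.61 and 2.01, and was not called because its tumors did not all lie above the culture of their line. Of 11 Schwann cell and neural crest genes 0 were called (median 0.38), a count that the shares of all genes called would also give.

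Genes of the sex chromosomes differ between cells of male and female animals and were listed for that reason. Xist, transcribed from the inactive X chromosome, stood high in the cultures of lines 31 and 59 and in their tumors and near the floor in line 123. On the 27-array scale it was at 10.04 and 10.76 in the cultures of lines 31 and 59, at 9.61 to 9.73 and 9.01 to 10.34 in their tumors, and at 5.15 in the culture and 4.42 to 5.31 in the tumors of line 123. The Y-linked Eif2s3y, a subunit of a translation initiation factor, was at 4.05, 3.84 and 4.82 in the 3 cultures. It was at 7.84, 7.05 and 7.77 in the tumors of line 31, at 6.56, 6.49 and 6.64 in those of line 59 and at 8.31, 7.06 and 6.68 in those of line 123. Every tumor exceeded its culture, and the Y-linked Uty and Kdm5d did the same. This made 3 of 4 sex-linked genes called (75.0%, against 3.23% of all genes higher). The tumors of line 1 held Eif2s3y at 6.24 to 7.84. The cultured lines 95, 119, 120 and 331 held it at 6.27 to 8.89, and lines 3, 28 and 116 at 3.83 to 3.93. The pieces of subcutaneous tissue held Eif2s3y at 2.96 to 3.95, Kdm5d at 6.32 to 7.95, within the range of the tumors (6.56 to 8.37) or just below it, Uty at 4.87 to 5.34, below all 9 tumors (5.98 to 7.75), and Xist at 10.75 to 11.39. The sex of the hosts was not labelled, and the part of host cells in these levels was not tested.

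**Figure D4:**
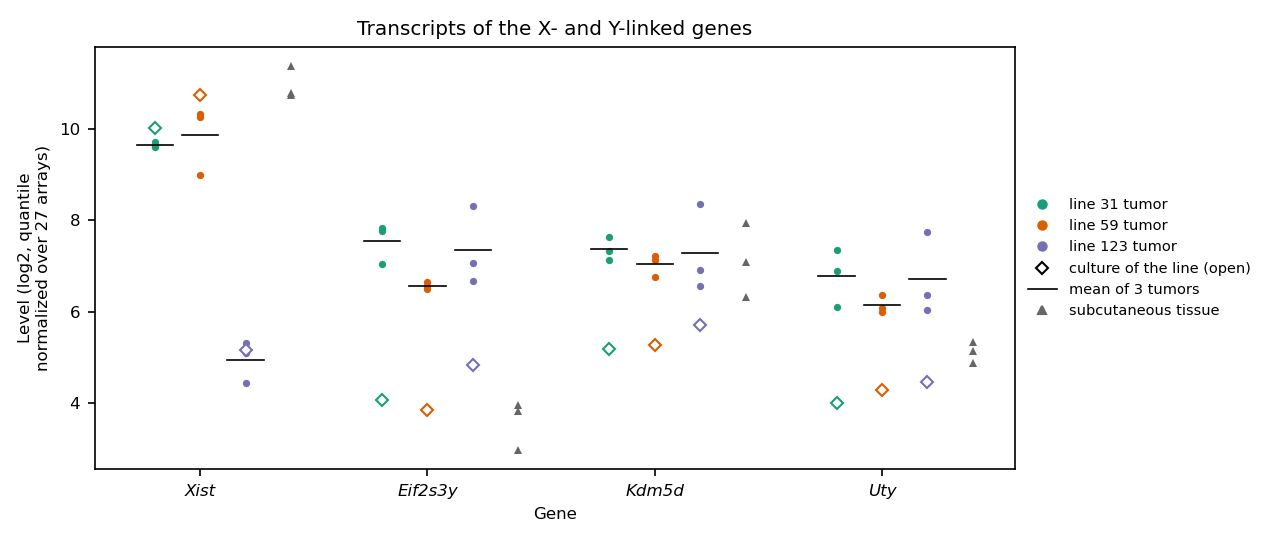
Log2 level (y axis, quantile normalization over 27 arrays) of the X-linked Xist and the Y-linked Eif2s3y, Kdm5d and Uty. Filled dots are single tumors, black bars the mean of 3 tumors, open diamonds the culture of the line and grey triangles the 3 pieces of subcutaneous tissue; Eif2s3y stands at 3.84 to 4.82 in the cultures and 6.49 to 8.31 in the tumors.

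Whether the tumor-culture difference of a gene varied between the 3 lines could be tested, because a shift common to all culture arrays cancels. The limma F test estimated the spread from the 3 tumors of each line (6 residual degrees of freedom) and assumed that cultures vary like tumors, with p adjusted over all genes by Benjamini and Hochberg. It called 6 genes (0.0301% of 19937), and the contrasts of 1 line against the mean of the other two called 2 in line 31 (0.01%), 3 in line 59 (0.015%) and 2 in line 123 (0.01%). By the F test, 688 genes had an unadjusted p under 0.05 (3.45%). That is a smaller share than this threshold would give if no difference varied between lines. None of the 6 was among the genes called in all lines, a count near the shares of all genes called (3.23% higher, 0.988% lower). Each of the 6 rests on 1 culture array per line. The count was 1 to 5 without any other single tumor and 13 without tumor 3 of line 31.

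Casp8, the initiator caspase of death receptors, stood at 4.22 in the culture of line 31 and at 8.77, 8.36 and 8.75 in its tumors. In lines 59 and 123 it stood at 8.86 and 8.95 in culture and at 9.10 to 9.77 in tumors. The low culture of line 31 was the odd value, and the difference there exceeded that of the other 2 lines by 3.84 ± 0.32 (SE; limma F test, adjusted p = 0.01039). On the 27-array scale this culture was at 4.59, while the other 9 cultured lines were at 7.46 to 9.31, normal NSCs at 6.97 and 7.02 and subcutaneous tissue at 7.89 to 9.70. Without tumor 1 or tumor 2 of line 123 the limma adjusted p was 0.0503 and 0.0536.

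Igfbp5, which binds insulin-like growth factors, went opposite ways. In line 31 it stood at 7.75 in culture and at 5.91, 6.35 and 6.01 in tumors. In line 59 it stood at 5.39 in culture and at 8.02, 7.71 and 8.04 in tumors, and in line 123 at 5.58 and at 7.03, 7.13 and 6.76. The line 31 difference fell short of the others by 3.62 ± 0.29 (SE), given as -3.62, and the line 59 difference exceeded them by 2.66 ± 0.29 (limma F test, adjusted p = 0.009863). The order of the lines in culture was thus the reverse of that in tumors. Tumors of line 1 held Igfbp5 at 8.37 to 9.72 on the 27-array scale, against 6.23 to 8.27 in the 9 tumors.

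Otx2, a transcription factor of the anterior neural plate, stood at 8.11 in the culture of line 59 and at 5.05, 4.45 and 4.53 in its tumors, which is near the floor, with 4.34 to 5.15 in all arrays of the other lines. The line 59 difference departed by -3.0 ± 0.29 (SE; limma F test, adjusted p = 0.01901). Foxc2, a transcription factor of mesenchyme, stood at 8.60 in the same culture and at 5.62, 5.16 and 5.38 in its tumors, a departure of -2.78 ± 0.29 (limma F test, adjusted p = 0.01901). On the 27-array scale the cultures of lines 95 and 116 also held Otx2 high, at 8.04 and 9.35. Foxc2 ranged from 5.48 to 8.80 among the 10 cultured lines, and the tumors of line 1 held it at 7.90 to 8.23, against 5.38 to 5.95 in the 9 tumors. Both genes were high in the culture of line 59 and low in every one of its tumors. Neither passed the limma F test without tumor 2 or 3 of line 59 or without any of the tumors of line 123 (adjusted p = 0.057 to 0.0832), and Otx2 did not pass without tumor 1 of line 31 (0.0833).

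Hdac9, a histone deacetylase, stood at 7.89, 8.59 and 6.36 in the cultures of lines 31, 59 and 123, and at 6.78 to 7.10 in all 9 tumors. The departure of line 123 was 1.93 ± 0.22 (SE; limma F test, adjusted p = 0.03415), with tumors in a narrow band and cultures spread around it. On the 27-array scale 8 of the 10 cultured lines held Hdac9 at 8.13 to 9.09, and lines 120 and 123 at 7.09 and 6.67. Vat1l stood at 6.57 in the culture of line 123 and at 4.26 to 4.67 in the 11 other arrays, a departure of -2.13 ± 0.19 (limma F test, adjusted p = 0.01259). Subcutaneous tissue held Vat1l at 5.08 to 8.34 on the 27-array scale. Hdac9 did not pass the limma F test when any of the 8 tumors other than tumor 3 of line 31 was left out (adjusted p = 0.054 to 0.151), with eBayes trend and robust (0.0744) or among genes above the median level (0.0717). Vat1l did not pass without tumor 2 of line 59 or any tumor of line 123 (0.0567 to 0.0794).

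**Figure D5:**
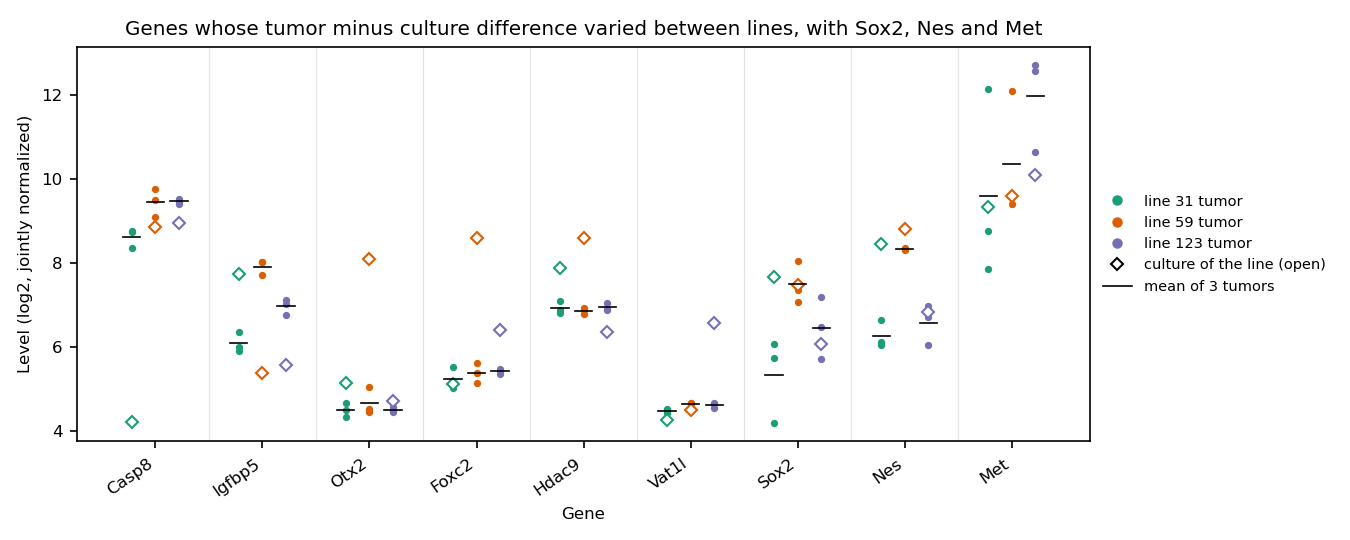
Log2 levels (y axis, joint normalization) of the 6 genes whose tumor minus culture difference varied between lines in the limma F test, and of Sox2, Nes and Met. Filled dots are single tumors, black bars their means and open diamonds cultures; the departing values of Casp8, Otx2, Foxc2 and Vat1l are single culture arrays, and Met spreads from 7.86 to 12.72 among tumors.

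Of 25 growth factor and receptor genes 1 lay higher, Pdgfra (4.0%, near the 3.23% of all genes), and 1 lower, Fgf7, and of 16 targets of FGF and MAPK signalling Ccnd1 was called, lower. The receptor tyrosine kinase gene Met varied within lines instead. It stood at 9.33, 9.61 and 10.11 in culture, at 8.77, 7.86 and 12.14 in line 31, at 9.59, 12.11 and 9.40 in line 59 and at 12.72, 10.65 and 12.58 in line 123. In each line at least 1 tumor lay above 12 and another below 11, and the SD between tumors was 2.26, 1.51 and 1.16. The difference was not called, and the limma F test gave an adjusted p of 0.9999. Its ligand gene Hgf, mainly a product of mesenchymal cells, differed by 1.23, 3.39 and 2.77 and was not called. Egfr, the receptor for epidermal growth factor, differed by 0.37, 0.70 and -0.10. Actb, a cytoskeletal gene used as a loading reference, differed by -0.17, -0.04 and -0.22.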

How the data were processed

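RNA was measured on Affymetrix arrays from 100 ng of total RNA. The deposited values are log2 levels made by the authors with RMA, and the submitters' processing notes name GCOS and Affymetrix Expression Console; versions and genome build are not given in the sources used here. Of 34760 probe sets, 21640 had 1 gene symbol, 1321 several and 11799 none. A gene was represented by its probe set with the highest mean, and 19937 genes were quantile normalized over the 12 arrays. Calls, lists and position among cultures are descriptions. Line differences were tested with limma 3.58.1 in R 4.3.3 (6 groups, prior of 4 degrees of freedom), checked on simulated data. Named genes were, per direction, the 12 called genes whose smallest line difference was largest (provisional and Olfr or Vmn symbols left out), up to 4 called members per list, the genes passing the F test with the contrast of their line, and a fixed set of 16; other list members named were picked after their values were seen. The sequences come from RefSeq promoters. Members, lists and rules were chosen with earlier results of these data known. Of 613 listed genes, 565 were measured. Alternatives included other scalings, probe set choices, thresholds, a replicate block and leaving out each tumor or line.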

Additional observations from a re-analysis of the deposited data

Results flagged for a closer look

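The difference between tumors and culture varied between the 3 lines in 6 genes by the limma F test. Casp8 exceeded the other lines by 3.84 in line 31. Igfbp5 departed by -3.62 in line 31 and lay below culture in line 31 and above it in lines 59 and 123. Otx2 departed by -3.0 and Foxc2 by -2.78 in line 59, where both were high in culture. Hdac9 departed by 1.93 and Vat1l by -2.13 in line 123. Each value rests on 1 culture array per line, and no second culture array was analysed here.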

How the results depend on the processing

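With values as deposited, where the median difference of all genes was -1.60, 126 genes lay higher (0.815% of the called) and 15336 lower, and reversed values were -0.07 for Csf3r, -0.09 for Tnnc2, -0.03 for Col3a1, -0.39 for the fibroblast median and -0.16 for the interferon median. Thresholds of 4-fold and of any size gave 208 and 3137 higher and 4 and 4759 lower. Without line 59 the lower count was 316, and without line 123 it was 323. The limma F count was 2 among genes above the median level, 5 with eBayes trend and robust, 1 (Casp8) with the replicate block and 1 to 13 without single tumors, with 13 without tumor 3 of line 31. Without single tumors, 630 to 652 genes lay higher and 173 to 214 lower. Median centring gave 670 and 248, normalization over 27 arrays 612 and 163, over all probe sets 648 and 188, and averaged probe sets 636 and 198. Replicate numbers did not pair the samples (correlations of deviations -0.124 to 0.041). With the block, adjusted p (limma) was 0.0753 for Igfbp5, 0.111 for Foxc2, Otx2 and Vat1l and 0.226 for Hdac9. The cause of these changes was not tested. The number of arrays and the nearness of 272 of the 644 higher genes to the floor in culture limit precision.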

Other observations

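Families were grouped by symbol after the values were seen, so their counts describe and do not test. Of all genes, 3.23% lay higher and 0.988% lower. Receptors for the Fc part of antibodies, which let phagocytes bind coated targets, lay higher in 5 of 7 members (Fcgr and Fcer; median 2.67). Guanylate-binding proteins, which interferon-gamma induces, lay higher in 7 of 8 (Gbp; median 2.08), Schlafen genes in 5 of 9 (Slfn; 1.73), and Toll-like receptors, sensors of microbial molecules, in 6 of 10 (Tlr; 1.52). Purinergic receptors lay higher in 6 of 9 (P2ry) and cathepsins, proteases of the lysosome, in 8 of 17 (median 0.90). C-type lectins had 10 of 33 higher, the Ms4a family 8 of 19 and Trim genes 6 of 59. Matrix metalloproteinases had 5 higher and 1 lower of 22. On the lower side stood 7 of 38 kinesins (Kif; median -0.34) and 5 of 10 Mcm genes (median -1.17).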
